A study of Mus musculus with 2 samples.

Results

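Genes that mark the cells of the vessel wall were described in striatal tissue of WT and of Cx30 KO mice after MPTP, a toxin that destroys dopaminergic terminals. They are 35 genes of the 37074 distinct gene names printed on the arrays, found by their symbol: 20 endothelial genes, 8 genes of the blood-brain barrier and 7 genes of mural cells. The WT array carried striatal RNA pooled from 2 male mice whose strain is given as C57BL/6J, and the Cx30 KO array carried the same from 2 male mice of the strain given as Cx30-LacZ, which lack the astrocytic gap junction protein connexin 30 in every cell and carry LacZ at its locus. According to the methods, the WT mice were non-mutant offspring of the same crosses. All mice were 8 weeks old, had received 4 intraperitoneal injections of 20 mg/kg MPTP at intervals of 2 h and were examined on day 1 after the last injection. With 1 array for each genotype, no difference has a replicate check and no p-value is given, and genotype, strain label, pool and dissection cannot be told apart. No saline array was analysed here, so a difference between the arrays is a difference between the WT and Cx30 KO pools after MPTP and not a response to MPTP.

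Endothelial cells line the vessel lumen, and in the brain they are sealed to each other by tight junctions built from claudin-5, occludin and ZO-1. They pump lipophilic compounds back to the blood and carry hormones and lipids inwards through dedicated transporters. Mural cells lie outside the endothelium: pericytes on capillaries, and contractile smooth muscle cells on arterioles. Astrocytes wrap this wall with their endfeet, where connexin 30 and connexin 43 join neighbouring processes. The arrays measured whole striatal tissue, in which a lower signal from fewer cells of a type and from less RNA per cell cannot be told apart.

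The targeted gene followed the labels, since the signal of *Gjb6*, which encodes connexin 30, was 1788 ± 179 in WT against 111 ± 11.6 in Cx30 KO, 15.4-fold lower. Here and below, a signal is the processed signal of the scanner software in arbitrary units, and the value after ± is the error that this software assigns to it from a single array, not a spread between animals. Log2 ratios are Cx30 KO over WT after each array was scaled to its 75th percentile of signal, which was 401.2 in WT against 381.8 in Cx30 KO. Well above background were 56.6% of the 56605 probes on the WT array and 58.2% on the Cx30 KO array, and no probe was saturated. Over 7147 genes with several detected probes, the SD of the log2 ratio between probes of a gene was 0.26. A gene was called lower or higher by criteria with the limits that the study set, namely Z-score at most -2 with ratio at most 0.66, or Z-score at least 2 with ratio at least 1.5. The Z-score was computed here against the log2 ratios of the 1000 probes nearest in signal, a window that is a choice of the present processing.

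All 35 genes were well above background on both arrays. The log2 ratio was negative in 23 of them (65.7%) and positive in 12, with a median of -0.19. Over all 22008 detected genes 45.4% were negative and the median was 0.03. By the criteria, 4 of the 35 genes were lower (11.4%), against 3.39% of all detected genes, and none was higher, against 2.37%. All of the genes called lower, *Tm4sf1*, *Itm2a*, *Flt1* and *Vwf*, belong to the endothelial list. A log2 ratio below the negative of the probe SD was found in 15 of the 35 genes (42.9%) and in 18.2% of all genes, and a log2 ratio above the probe SD in 6 (17.1%) and in 21.0%. The endothelial, barrier and mural genes had medians of -0.13, -0.37 and 0.11, and their ranges overlapped. The count depends on the settings, because 2 genes were called when the probes of a gene were averaged (5.71%, against 2.97% of all genes) and 1 when all detected probes entered the Z-score (2.86%, against 2.03%) or when ratio limits of 2 and 0.5 were used (2.86%, against 1.94%).

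**Figure D1:**
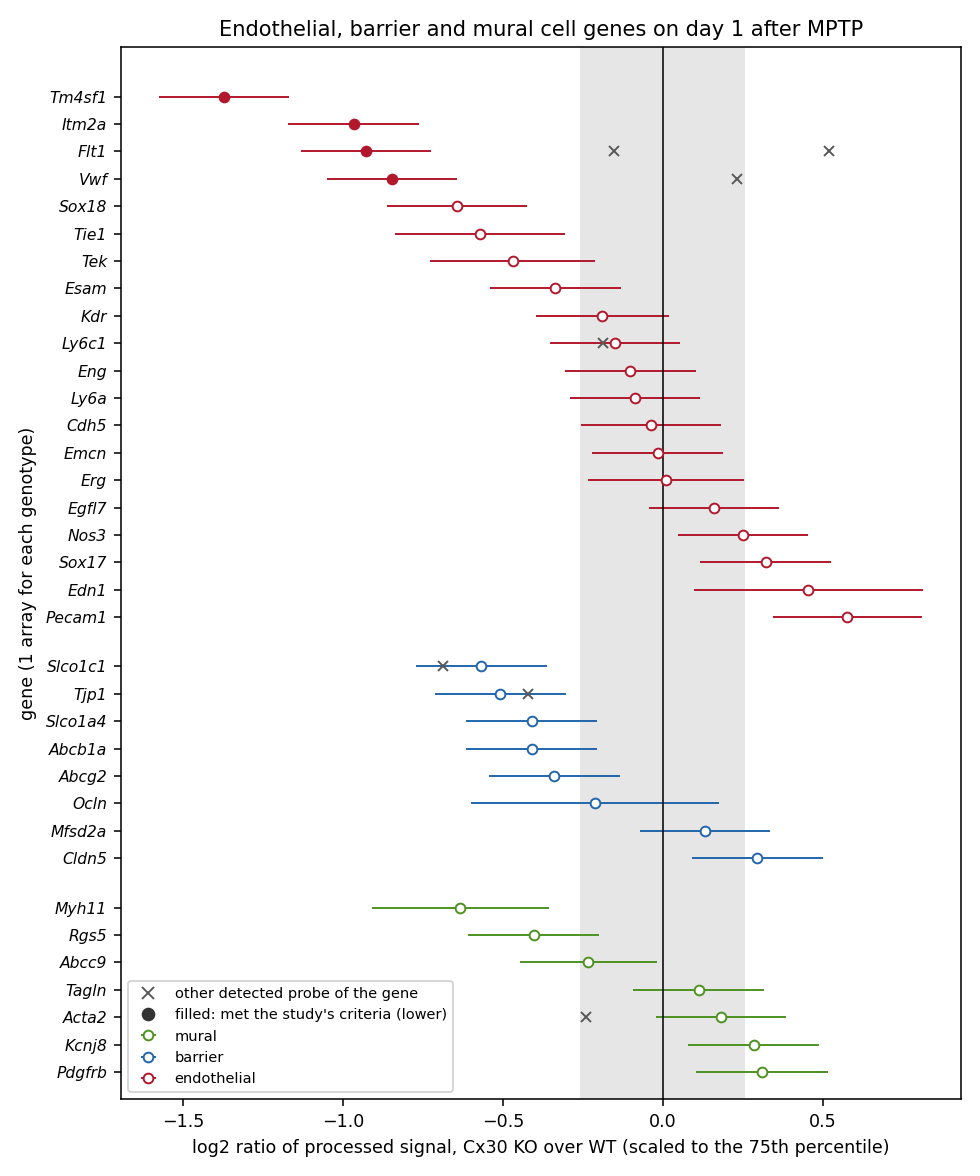
Log2 ratio of the processed signal, Cx30 KO over WT, for the brightest detected probe of each of the 35 genes, with 1 array for each genotype. Bars show the scanner error, filled points the 4 genes called lower, crosses the other probes detected on both arrays, and the grey band the SD of 0.26 between probes of a gene; the called genes lie at the top, and the other probes of *Flt1* (-0.15 and 0.52) and *Vwf* (0.23) lie to the right of their points.

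*Tm4sf1*, a small membrane protein of the tetraspanin-like family that is abundant in endothelium, had the lowest log2 ratio of the list. Its signal was 2307 ± 231 in WT against 848 ± 84.9 in Cx30 KO, 2.59-fold lower, with a log2 ratio of -1.37 (Z-score -5.05). The probe lies at chr3:57091569-57091628 on the minus strand (mm9, as in the file). It met the criteria under all 10 alternative settings. *Tm4sf1* is also among the genes of the A2 astrocyte set that the study examined, so its signal cannot be assigned to vessels alone.

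*Itm2a*, an integral membrane protein found in brain endothelium, had a signal of 1067 ± 106.8 in WT against 519.7 ± 52.2 in Cx30 KO. The Cx30 KO signal was 1.95-fold lower, with a log2 ratio of -0.97 (Z-score -3.32), at chrX:104592916-104592975. Its log2 ratio was negative under all 10 alternatives and it met the criteria under 8 of them.

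*Flt1* encodes VEGFR1, a receptor of vascular endothelial growth factor that binds the ligand tightly and also exists as a shorter, soluble form. Its brightest probe read 3414 ± 341 in WT against 1708 ± 171 in Cx30 KO, 1.90-fold lower, with a log2 ratio of -0.93 (Z-score -3.43). The other detected *Flt1* probes did not follow it. A probe 5′ of it read 938 ± 94.0 and 803 ± 80.4, a log2 ratio of -0.15. The detected probe farthest 5′ read 209.5 ± 21.4 and 286 ± 28.8, a log2 ratio of 0.52. These 5′ probes lie close together and are listed for the same transcript, and they differed in sign. A further probe, still farther 5′, was well above background on neither array. The first 30 of the 60 bases of each detected probe are shown, because the result for this gene depends on which probe is read. None of the letters is in capitals.
Flt1, NM_010228, chr5:148373791-148373850: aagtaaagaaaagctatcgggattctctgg
Flt1, ENSMUST00000110529, chr5:148448888-148448947: tcctcagaacaaaacctgaactgaactgag
Flt1, ENSMUST00000110529, chr5:148450688-148450747: aggaggaatgattgtaccacacaaagtcat
All lie on the minus strand of mm9, so the first of these probes is the 3′-most. The names are the transcripts for which the file lists each probe, and their exons were not assigned here.

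*Vwf*, von Willebrand factor, is the adhesive protein that endothelial cells store for platelet binding. Its brightest probe read 1639.7 ± 164 in WT against 868 ± 86.9 in Cx30 KO, 1.80-fold lower, with a log2 ratio of -0.85 (Z-score -3.14). The other detected probe was dim, with 46.1 ± 6.42 in WT against 51.6 ± 6.52 in Cx30 KO, a log2 ratio of 0.23. As for *Flt1*, the 3′ probe was lower in Cx30 KO and the 5′ probe was not. The first 30 bases of each are printed for the same reason.
Vwf, NM_011708, chr6:125636551-125636610, plus strand: caagtgaggcctgtgcagctacagcggatt
Vwf, ENSMUST00000112253, chr6:125542106-125542165: tagttaaacagaacaacagtgaagggcgga

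The difference between the 3′-most and the 5′-most probe was set against that of all genes with several detected probes. In *Flt1* the 3′ minus the 5′ log2 ratio was -1.45 over 76.9 kb. A difference as negative was found in 0.256% of 7038 genes and in 0.343% of those with probes more than 10 kb apart. In *Vwf* the difference was -1.08 over 94.4 kb, and the same shares were 1.02% and 1.24%. Both genes had been called lower by their 3′-most probe, which favours a negative difference. The shares therefore describe these genes and test nothing. Over all 7038 genes its median was -0.05, and over the 2915 genes with probes more than 10 kb apart it was -0.12, so that in the median gene the 3′ probe had a slightly lower log2 ratio than the 5′ probe. The differences in *Acta2*, *Tjp1*, *Ly6c1* and *Slco1c1* were -0.42, -0.09, 0.04 and 0.12. With all detected probes averaged, *Flt1* had a log2 ratio of -0.19 and *Vwf* of -0.31, and neither was called.

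**Figure D2:**
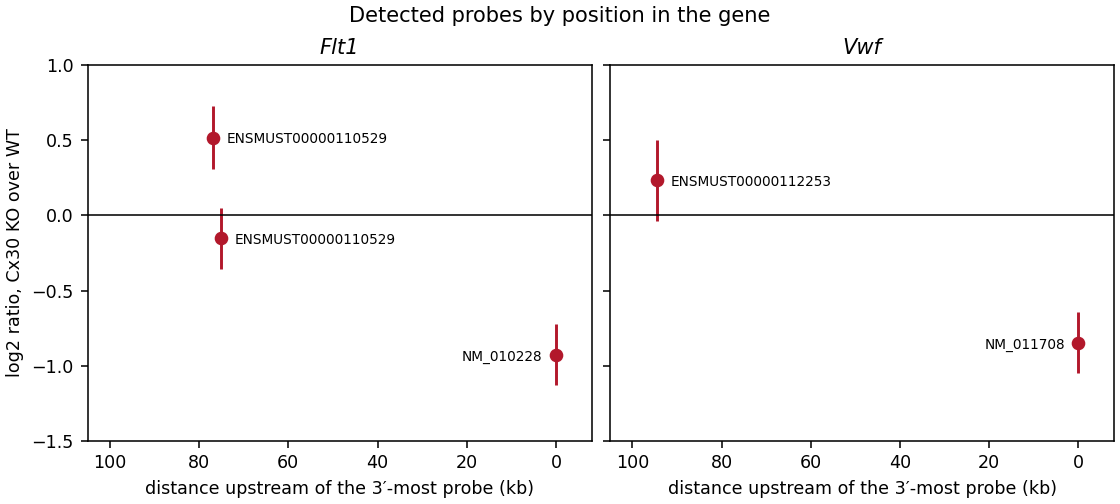
Log2 ratio, Cx30 KO over WT, of every detected probe of *Flt1* (left) and *Vwf* (right) against its distance in kb upstream of the 3′-most probe, with the scanner error as bars and the transcript listed for the probe beside it. In both genes the 3′-most probe lies lowest, at -0.93 and -0.85, and the probe farthest upstream lies above 0, at 0.52 and 0.23.

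The remaining endothelial receptors did not meet the criteria. *Kdr*, which encodes VEGFR2, the main signalling receptor for vascular endothelial growth factor, read 264 in WT against 221 in Cx30 KO, a log2 ratio of -0.19. The angiopoietin receptor *Tek* read 62.0 ± 7.47 and 42.6 ± 5.64, a log2 ratio of -0.47. The related orphan receptor *Tie1* read 78.5 ± 9.51 and 50.3 ± 6.96, with a ratio of 0.673 (Z-score -1.33), and neither value passed its limit. With another background correction, normexp followed by quantile normalisation (normexp below), the log2 ratio of *Tek* was -0.19 and that of *Tie1* was -0.21 in place of -0.57. *Eng*, endoglin, a co-receptor of the transforming growth factor family, was within the probe SD at -0.10. All of these receptors were lower in Cx30 KO in sign, and for *Kdr* and *Eng* the difference was smaller than that between probes of a gene.

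The adhesion and surface genes were spread on both sides of 0. *Pecam1*, the adhesion molecule CD31 of endothelial contacts, had the highest log2 ratio among the 35 genes at 0.58. Its signal was 63.9 ± 7.66 in WT against 90.7 ± 9.80 in Cx30 KO, and its ratio of 1.49 and Z-score of 1.15 were below the limits. With normexp it was 0.31, close to the 0.30 of *Cldn5*. *Cdh5*, the cadherin of endothelial adherens junctions, read 120 and 112, a log2 ratio of -0.04, and *Emcn*, a mucin-like surface protein, had -0.02. Both were among the smallest differences of the list. *Esam*, another adhesion molecule of endothelial junctions, read 627 and 473, a log2 ratio of -0.34. The Ly6 surface proteins of brain endothelium were close to 0, with -0.15 for *Ly6c1* (-0.19 with its other probe) and -0.09 for *Ly6a*.

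Among the transcription factors, *Sox18* came closest to the criteria. Its signal was 129 ± 13.6 in WT against 78.6 ± 8.68 in Cx30 KO, with a ratio of 0.64 that passed the limit and a Z-score of -1.56 that did not. With normexp its log2 ratio was -0.38 in place of -0.64. *Sox17*, a relative that acts in arterial endothelium, had a log2 ratio of 0.32, in the opposite direction. The ETS factor *Erg*, which maintains endothelial identity, read 61.8 and 59.2 and had a log2 ratio of 0.01, which became -0.04 when arrays were scaled by the median or quantile-normalised. Further products that are secreted or enzymatic, *Egfl7*, *Nos3* and *Edn1*, had positive log2 ratios and none was called, unlike the secreted *Vwf*. *Egfl7*, a matrix factor of endothelium, had 0.16, and *Nos3*, the endothelial nitric oxide synthase, read 934 and 1058, a log2 ratio of 0.25. *Edn1*, the precursor of the vasoconstrictor endothelin-1, was dim at 29.4 ± 5.75 and 38.4 ± 5.86, with a log2 ratio of 0.46, or 0.12 with normexp.

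**Figure D3:**
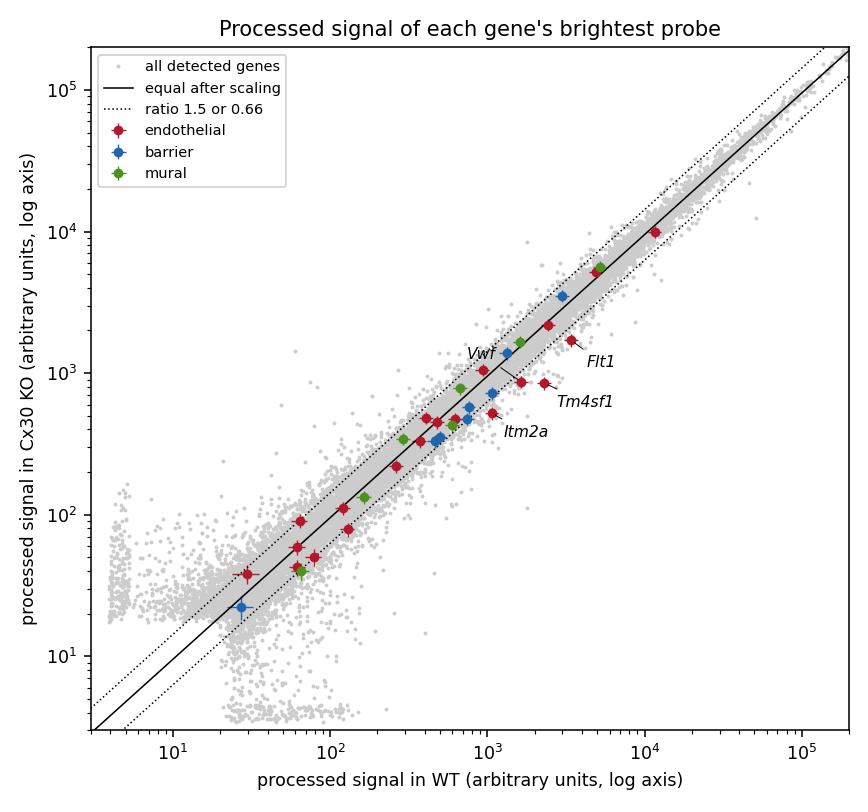
Processed signal of the 35 genes in Cx30 KO against WT, both on log10 axes and in arbitrary units, with 1 array for each genotype. The diagonal marks equal signal after scaling, the dotted lines ratios of 1.5 and 0.66, and the bars the scanner error. *Tm4sf1*, *Itm2a*, *Flt1* and *Vwf* lie below the diagonal with WT signals between 1067 and 3414. The uncalled *Sox18* and *Myh11* also lie below the 0.66 line, and 14 of the 35 genes had a log2 ratio within the SD of 0.26 between probes.

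Of the 8 barrier genes 6 had a negative log2 ratio, with a median of -0.37, and none met the criteria by its brightest probe. *Slco1c1*, the thyroxine transporter OATP1C1, read 743 ± 74.4 in WT against 477 ± 47.9 in Cx30 KO, with a ratio of 0.675 (Z-score -1.69). Its other probe, the brighter in WT and the dimmer in Cx30 KO, read 747 ± 74.8 and 441 ± 44.3, with a ratio of 0.621 (Z-score -2.07) that would have met the criteria, so the call of this gene depends on the probe. The organic anion transporter *Slco1a4* read 462 and 331, a log2 ratio of -0.41. The efflux pumps were lower in sign as well, *Abcb1a* (P-glycoprotein) with 497 and 356, a log2 ratio of -0.41, and *Abcg2* (breast cancer resistance protein) with 763 and 574, a log2 ratio of -0.34. *Mfsd2a*, the lysophosphatidylcholine carrier that brings docosahexaenoic acid into the brain, was the exception among the 5 transporters at 0.13. The transporters had a median of -0.41.

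The tight junction genes did not share a direction. *Tjp1*, which encodes the scaffold ZO-1, read 1076 ± 107.8 in WT against 720.5 ± 72.2 in Cx30 KO, a log2 ratio of -0.51 with a Z-score of -1.79, and -0.42 with its other probe. *Ocln*, occludin, was near background at 27.3 ± 5.04 and 22.4 ± 4.39, a log2 ratio of -0.21. *Cldn5*, the claudin that seals the brain endothelium, read 3000.3 ± 300.1 and 3506 ± 351, a log2 ratio of 0.30 with the higher signal in Cx30 KO. ZO-1 and occludin are also made by other cells of the tissue, whereas claudin-5 is largely endothelial.

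The mural genes were nearer to the bulk of genes than the barrier genes, and none was called. Of the pericyte genes, *Rgs5*, a regulator of G protein signalling, read 598 in WT against 430.0 in Cx30 KO, a log2 ratio of -0.40, and *Abcc9*, which encodes the SUR2 subunit of ATP-sensitive potassium channels, had -0.23. *Kcnj8*, the pore-forming partner Kir6.1 of the same channel, read 672 and 779, a log2 ratio of 0.28. *Pdgfrb*, the receptor by which pericytes are recruited to vessels, read 293 and 345, a log2 ratio of 0.31. The channel subunits and the pericyte genes as a whole thus had both signs, with 2 below and 2 above 0.

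Of the smooth muscle genes, *Tagln* (transgelin) had a log2 ratio of 0.11. *Acta2*, smooth muscle actin, read 5238 and 5656, a log2 ratio of 0.18, while its other probe detected on both arrays gave -0.24. The mean of the *Acta2* probes was -0.03. *Myh11*, smooth muscle myosin, was dim at 64.9 ± 8.10 and 39.8 ± 5.82, with a ratio of 0.645 but a Z-score of -1.15, which missed the limit. With normexp its log2 ratio was -0.23 in place of -0.63. A further pair of its probes were each well above background on 1 array only and pointed in opposite directions, from 16.6 in WT to 26.6 in Cx30 KO and from 25.2 to 9.48, and its last probe was above background on neither. In neither *Acta2* nor *Myh11* did the probes of the gene share a direction.

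Endothelial promoters often carry binding sites of ETS factors such as ERG, and 24 of the 35 genes had an entry among the RefSeq promoters of GRCm38.p6. The 250 bases before the transcription start are shown for the 3 called genes with an entry and for *Cldn5*, which was not lower, with the ETS core GGAA on either strand in capitals (TTCC where it is on the other strand).
Flt1, chr5:147726012-147726261, minus strand: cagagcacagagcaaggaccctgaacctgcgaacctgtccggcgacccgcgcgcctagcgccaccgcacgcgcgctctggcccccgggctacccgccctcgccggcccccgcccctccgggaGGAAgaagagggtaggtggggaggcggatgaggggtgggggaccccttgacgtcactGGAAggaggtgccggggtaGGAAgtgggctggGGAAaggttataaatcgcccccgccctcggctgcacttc
Itm2a, chrX:107403361-107403610, minus strand: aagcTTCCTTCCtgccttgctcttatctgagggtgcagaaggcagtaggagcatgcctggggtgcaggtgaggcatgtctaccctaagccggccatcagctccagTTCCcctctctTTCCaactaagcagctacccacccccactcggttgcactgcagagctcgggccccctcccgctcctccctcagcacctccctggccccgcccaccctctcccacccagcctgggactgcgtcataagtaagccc
Tm4sf1, chr3:57301989-57302238, minus strand: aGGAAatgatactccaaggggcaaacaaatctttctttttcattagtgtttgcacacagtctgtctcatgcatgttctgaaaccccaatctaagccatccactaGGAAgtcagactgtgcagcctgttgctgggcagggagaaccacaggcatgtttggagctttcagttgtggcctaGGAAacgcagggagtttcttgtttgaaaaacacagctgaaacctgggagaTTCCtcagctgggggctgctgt
Cldn5, chr16:18776597-18776846, plus strand: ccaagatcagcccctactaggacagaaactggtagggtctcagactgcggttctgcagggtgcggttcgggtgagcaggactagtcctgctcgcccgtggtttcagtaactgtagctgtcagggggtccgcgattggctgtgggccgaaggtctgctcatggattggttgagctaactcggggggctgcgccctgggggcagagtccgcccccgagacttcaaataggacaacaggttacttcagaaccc
Each of the called genes shown had 4 matches, of which *Itm2a* had adjoining ones. *Cldn5*, the only uncalled gene shown, had none, unlike most windows of the 24 genes. The median was 3 matches, both over all 32851 windows and over the 32 windows of the 24 genes. The core is short and was present in 93.4% of all 32851 windows of this length, and in 29 of the 32 windows of the 24 genes (90.6%). The longer word CAGGAA, which contains the core, was in 25.7% of all windows and in 11 of the 32 (34.4%). These are matches of letters and not known binding sites.

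Further vascular genes were read by the same criteria, from lists drawn up with earlier results of these data known. For comparison with the counts of these lists, 45.4% of all detected genes had a negative log2 ratio, 3.39% were called lower and 2.37% higher. Of 46 other endothelial genes 43 were detected, 34 of them lower and 9 higher in sign, with a median log2 ratio of -0.25. *Slc38a5*, a glutamine transporter of brain endothelium, was lower, from 597 ± 59.9 in WT to 116 ± 12.3 in Cx30 KO, 4.92-fold. *Slc16a1*, the lactate carrier MCT1, was also lower, from 1374 to 742, a log2 ratio of -0.82, and is found in oligodendrocytes and astrocytes too. The remaining 41 detected genes of the list were not called, so 2 of 43 stand beside 3.39% of all genes.

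Of 16 genes of activated endothelium 14 were detected, with 10 negative and 4 positive log2 ratios and a median of -0.31. *Anxa2*, a membrane-binding annexin that helps assemble plasmin at the cell surface, was lower, from 4488 ± 449 to 1668 ± 167, a log2 ratio of -1.36 (-1.51 with its other probe). *Cd9*, a tetraspanin, was lower from 2814 to 1376, a log2 ratio of -0.96. The leukocyte adhesion molecules that define activated endothelium did not meet the criteria, with 0.11 for *Icam1* (-0.11 with its other probe), -0.41 for *Vcam1* (-0.04) and 0.15 for *Selp*, and *Sele* was not well above background. *Anxa2* and *Cd9* are made by many cell types, glia among them.

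Of 30 other mural genes 26 were detected, with 20 negative and 6 positive log2 ratios and a median of -0.18. *S1pr3*, a sphingosine-1-phosphate receptor of smooth muscle that also belongs to the pan-reactive astrocyte set of the study, was lower, from 628 ± 63.0 to 119 ± 12.7, 5.01-fold. *Sncg*, gamma-synuclein, was lower by its brightest probe, from 230 to 88.5, a log2 ratio of -1.31, and had -0.25 with its other probe. Which cells gave the *Sncg* signal was not determined in whole tissue. The pericyte genes *Notch3*, *Vtn* and *Cspg4* had log2 ratios of -0.20, -0.10 and -0.35.

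In the signalling pathways that act on vessels, 42 of 46 genes were detected, 4 were called lower and 2 higher, beside 3.39% and 2.37% of all detected genes, and the median was -0.10. The lower genes were *Id1*, a target of bone morphogenetic protein signalling (log2 ratio -0.79), the morphogen *Shh* (-0.77), the endothelin receptor *Ednrb* (-0.73) and the receptor *Tgfbr2* (-0.69). The higher genes were the Notch ligands *Dll1* (2.14-fold) and *Jag2* (1.77-fold). Of the ligands of the *Flt1* product, *Vegfa* had a log2 ratio of -0.07 (-0.32 to 0.63 over its 3 other detected probes), *Vegfb* of -0.15 and *Pgf* of 0.07.

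Markers of other cells in the tissue also differed between the arrays. Their counts stand beside all detected genes, of which 3.39% were called lower, 2.37% higher and 45.4% had a negative log2 ratio. Summed signals, here and below, are unscaled and are weighted towards the brightest genes of a list. Among blood genes, *Hba-a1* (alpha-globin) was lower, from 2976 ± 298 in WT to 916 ± 91.7 in Cx30 KO, 3.09-fold, and *Hbb-b1* (beta-globin) was well above background only in WT and at least 2.33-fold lower in Cx30 KO; *Alas2* and *Slc4a1* were not well above background. The median of the detected blood genes was -2.15, or -1.42 with *Hbb-b1* at that bound. Oligodendrocyte markers were negative in 7 of 7 with 5 called lower and a median of -0.73, and their summed signal was 157109 in WT against 93330 in Cx30 KO. Microglial markers were negative in 7 of 8 with 4 called lower and a median of -0.52. Their summed signals were 91054 and 83882, of which *Siglech*, the marker with a positive log2 ratio, gave 59850 and 62401. Astrocyte markers had a median of 0.02 with 1 of 8 called lower, *Aqp4*, the water channel of endfeet on vessels (889 to 438, a log2 ratio of -0.95, and -4.24 to 0.02 over its other probes). Summed astrocyte signals were 167926 and 154104.

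Markers of cortical projection neurons were higher in Cx30 KO in 6 of 6, with 5 called and a median of 3.24, or 2.14 with the genes detected on 1 array only set at their bound, and summed signals of 175 in WT against 1391 in Cx30 KO. Of these genes 2 were well above background on both arrays, *Neurod2* and *Tbr1*, and the other 4 in Cx30 KO only. The 9 striatal neuron markers had no call and a median of -0.16, with summed signals of 491715 and 485627. Choroid plexus genes had 1 call in each direction of 5 and a median of -0.02, with summed signals of 1633 and 1475. Fibroblast and leptomeningeal genes had no call among 9 detected and a median of 0.08, with summed signals of 1359 and 1393. For comparison, the summed signal of the 20 endothelial genes was 31034 in WT against 24813 in Cx30 KO, that of the 8 barrier genes 7896 and 7371, and that of the 7 mural genes 8642 and 9041. The part of the blood, glial and cortical differences in the values of the vascular genes was not tested.

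**Figure D4:**
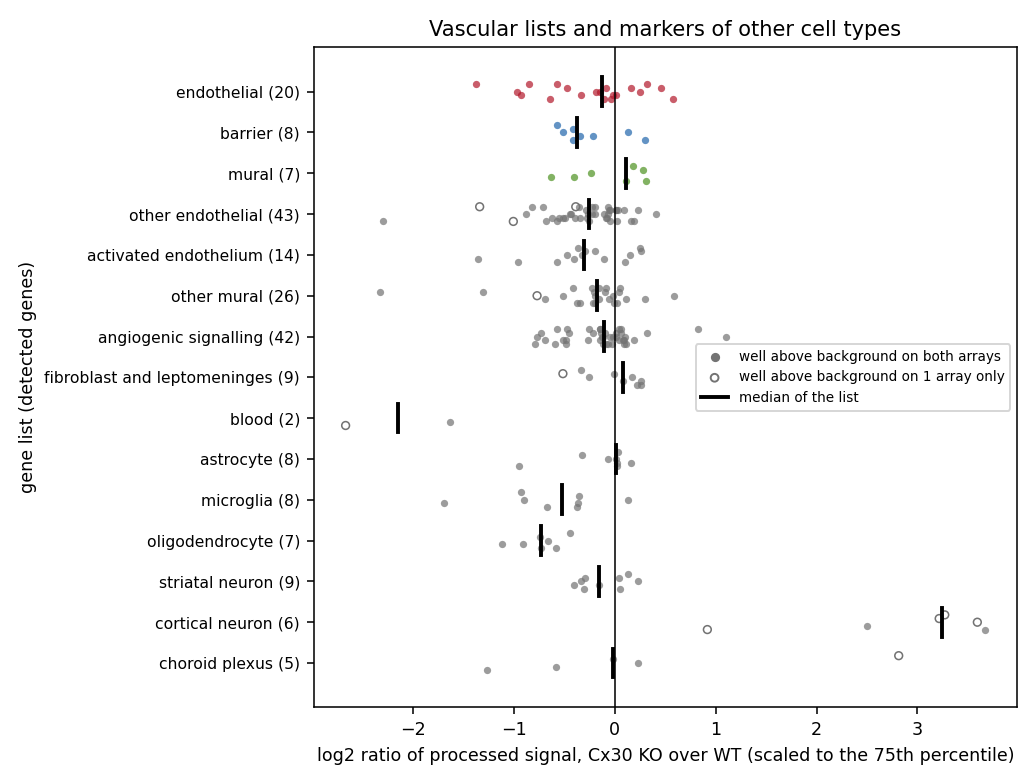
Log2 ratios, Cx30 KO over WT, of the detected genes of each list, with the number of detected genes in parentheses. Filled points were well above background on both arrays and open points on 1 array only, and black bars are medians; the vascular lists have medians between -0.37 and 0.11, whereas blood lies at -2.15, oligodendrocyte at -0.73, microglia at -0.52 and cortical neuron markers at 3.24.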

How the data were processed

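Total striatal RNA was labelled with Cy3 and hybridised to 2 single-colour Agilent arrays of 60-base probes, 1 for WT and 1 for Cx30 KO, each a pool of 2 mice. The deposited scanner files hold fluorescence intensity from Agilent Feature Extraction, whose version is 9.5.1.1 in the submitters' processing notes and 10.7.1.1 in the file headers. The authors' value table, also intensity, was within 1% of the quantile-normalised signals for 99.991% of values, and both columns had a median of 41.2.

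Control and outlier spots were left out of 62976 per array. The deposited intensity was turned into the log2 of the background-corrected processed signal minus the 75th percentile of the array. A gene was read by its brightest probe among those well above background in at least 50% of spots on at least 1 array. Symbols of 1897 probes were updated through a RefSeq table (GRCm38.p6); coordinates are those of the files (mm9). After scaling, 7 of 10 spike-in control probes were above background on both arrays, with log2 ratios of -0.07 to 0.05. Each member probe was printed in 1 spot, 56 probes in all, 42 of them detected on both arrays, and the scanner error of a member signal was 10.0 to 19.6%. The number of arrays limits the precision. At least N-fold is the bright signal over the higher of the dim signal and the lowest signal well above background, both scaled.

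The genes and lists were chosen with earlier results of these data known. Named were all members and all their detected probes, and, of other lists, genes that met the criteria, at most 5 in each direction; other genes named in the text were picked for their role after their values were seen. Alternatives changed the scaling, background correction (normexp, offset 50), filter, probe rule, Z-score and ratio limits. Python 3.11.15, numpy 2.4.6, pandas 2.3.3, R 4.3.3 and limma 3.58.1 were used. The Z-score and call steps alone were tested, on simulated log2 ratios.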

Additional observations from a re-analysis of the deposited data

How the results depend on the processing

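The number of vascular genes lower in Cx30 KO was 4 under 7 of the 10 alternatives. It was 2 when the probes of a gene were averaged, 1 with the Z-score over all detected probes and 1 with ratio limits of 2 and 0.5. No vascular gene was higher under any alternative, and 31 of the 35 met the criteria under none. The Z-score over all detected probes left *Tm4sf1* at -2.30 and put *Itm2a* at -1.64, *Flt1* at -1.58 and *Vwf* at -1.44. The median log2 ratio ranged over 7 alternatives from -0.17 to -0.13 for endothelial genes, from -0.42 to -0.32 for barrier genes and from -0.03 to 0.12 for mural genes, where averaging the probes of a gene gave the negative value. The sign held under all alternatives for 33 genes and changed for *Acta2* and *Erg*. Over all genes, 746 were lower and 522 higher. These counts became 446 and 484 with the Z-score over all detected probes, 428 and 340 with ratio limits of 2 and 0.5, and 502 and 328 when genes had to be above background on each array. The lower share of all calls was 58.8%, and 48.0% with the Z-score over all detected probes. No paired analysis was possible because each genotype has 1 array, and no replicate could be left out. Probes with signals near background limit what can be said of *Ocln*, *Edn1* and *Myh11*. With normexp and quantile normalisation, 6 genes moved towards 0 by more than the SD of 0.26 between probes of a gene, *Pecam1*, *Tek*, *Tie1*, *Sox18*, *Edn1* and *Myh11*.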
